A study of Mus musculus with 20 samples.

Results

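In C2C12 cells, a mouse myoblast line, 518 ATF4 peaks that were listed after thapsigargin and not after DMSO lay at neighbouring ends of 2 or more protein-coding genes. These gene-pair peaks were chosen by position alone, as thapsigargin peaks that shared no base (under 1 bp of overlap) with a DMSO peak and whose centre lay within 1 kb of an end of at least 2 different protein-coding genes. They made up 6.01% of the 8619 thapsigargin peaks and 6.62% of the 7822 peaks of the thapsigargin list alone. The genes came from the RefSeq gene table of GRCm38/mm10 (chromosomes 1 to 19 and X). Of the 518 peaks, 507 lay at the ends of 2 genes and 11 at the ends of 3. In all, 1036 genes (4.79% of 21631) formed 539 different pairs (11.2% of the 4810 pairs with ends at most 2 kb apart). With genes of all types in place of protein-coding genes, the same rule gave 912 peaks.

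The series profiled 5 targets by CUT&Tag in wild-type C2C12 cells treated for 6 h with DMSO, the solvent control, or with 100 nM thapsigargin. There were 2 replicates of each target and treatment, and ATF4 accounts for 4 of the 20 samples. The deposited ATF4 data are 1 peak list per treatment, with 803 peaks for DMSO and 8619 for thapsigargin, each peak given by chromosome, start and end. The lists carry no height, score or read count, so read depth is unknown and no spread between replicates can be given. Intervals below are 95% Wilson intervals for shares, Newcombe intervals for differences between shares and order-statistic intervals for medians. They cover the counting of peaks, genes or windows within these lists only, and no p-value was computed.

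Thapsigargin inhibits the pump that fills the endoplasmic reticulum (ER) with calcium, and so disturbs protein folding there. The kinase PERK then phosphorylates the translation factor eIF2α, general protein synthesis slows, and translation of the mRNA of ATF4, a basic leucine zipper factor, goes up. ATF4 binds DNA with partners such as C/EBP proteins at a composite element that can be written TGATGNAA, while relatives of the ATF/CREB family bind the palindrome TGACGTCA. Many mammalian genes lie head to head, so that a single stretch of CpG-rich DNA holds the starts of 2 genes that are transcribed away from each other. A peak at such a place cannot be assigned to 1 of the 2 genes by position.

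The promoter windows below show what such a place looks like. Each is the RefSeq window of 1 gene of the pair in GRCm38.p6, from 250 bases before to 50 bases after its start, written 5′ to 3′ on that gene's own strand, so that the gene starts at base 251. Capitals mark every match, on either strand, to TGATGNAA, TGACGTCA, CCGGAAGT (the ETS element), CGCATGCGC (the NRF1 element), AAGATGGCG (the YY1 element) or CCAAT (the NF-Y element). The first 4 come from pairs in which both genes stand in the gene lists described below, and each window also holds the start of the other gene. Another such window, that of Alg5 in the pair Exosc8/Alg5, is not printed and, like the one of Hspd1, holds none of the motifs. The 4 windows lie whole inside their peak. A gene can have several annotated starts, and each window is at the one nearest the peak centre. Distances below run instead to the outer ends of each gene's span. The starts printed with the windows differ from those ends for Hspd1, Psph and, further below, Zfp672.

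The window of Hspd1, the mitochondrial chaperonin HSP60, spans chr1:55087883-55088182 on the minus strand. Its partner Hspe1, the co-chaperonin HSP10, starts at base 35. It holds none of the 6 motifs.
Hspd1 (pair Hspe1/Hspd1): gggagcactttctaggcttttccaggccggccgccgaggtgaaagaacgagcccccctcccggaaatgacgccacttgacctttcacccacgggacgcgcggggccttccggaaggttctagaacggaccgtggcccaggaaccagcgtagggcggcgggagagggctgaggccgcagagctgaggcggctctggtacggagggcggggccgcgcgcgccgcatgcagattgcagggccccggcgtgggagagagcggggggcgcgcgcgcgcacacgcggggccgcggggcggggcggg
The window of Brca1, a DNA repair gene, spans chr11:101551906-101552205 on the minus strand. Nbr1, an autophagy receptor, starts at base 99, and the capitals are a CCAAT box.
Brca1 (pair Brca1/Nbr1): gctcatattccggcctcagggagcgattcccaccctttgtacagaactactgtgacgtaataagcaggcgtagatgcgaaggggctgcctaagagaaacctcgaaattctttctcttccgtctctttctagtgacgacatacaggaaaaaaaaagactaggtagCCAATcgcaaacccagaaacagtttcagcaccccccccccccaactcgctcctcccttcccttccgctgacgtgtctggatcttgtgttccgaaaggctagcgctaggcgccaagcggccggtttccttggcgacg
The window of Mrpl49, a mitochondrial ribosomal protein, spans chr19:6057706-6058005 on the minus strand. Fau, which encodes a ribosomal protein fused to a ubiquitin-like protein, starts at base 59, and the capitals are the palindrome TGACGTCA.
Mrpl49 (pair Mrpl49/Fau): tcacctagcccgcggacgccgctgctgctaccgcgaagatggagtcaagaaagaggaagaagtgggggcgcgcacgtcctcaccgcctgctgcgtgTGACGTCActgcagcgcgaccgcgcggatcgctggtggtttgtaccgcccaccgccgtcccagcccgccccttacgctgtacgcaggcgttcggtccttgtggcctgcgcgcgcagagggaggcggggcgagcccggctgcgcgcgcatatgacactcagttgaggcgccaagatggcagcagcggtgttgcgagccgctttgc
The window of Cct6a, a subunit of the cytosolic chaperonin, spans chr5:129787106-129787405 on the plus strand. Psph, the last enzyme of serine synthesis, starts at base 148, and the capitals are 2 CCAAT boxes.
Cct6a (pair Cct6a/Psph): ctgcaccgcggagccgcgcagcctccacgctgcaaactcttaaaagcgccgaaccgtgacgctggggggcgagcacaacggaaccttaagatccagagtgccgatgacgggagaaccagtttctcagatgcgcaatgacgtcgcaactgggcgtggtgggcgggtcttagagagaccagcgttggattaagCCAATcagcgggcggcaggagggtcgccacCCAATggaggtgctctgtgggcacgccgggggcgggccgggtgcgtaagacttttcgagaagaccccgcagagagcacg

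The next windows were chosen after the values were seen, to show exceptions in motif content. Plekha4 at chr7:45526080-45526379 (plus strand) stands beside the start of Ppp1r15a, the phosphatase subunit also called GADD34 that reverses eIF2α phosphorylation, and the palindrome in capitals lies at bases 194 to 201, beside the Ppp1r15a start at base 189.
Plekha4 (pair Ppp1r15a/Plekha4): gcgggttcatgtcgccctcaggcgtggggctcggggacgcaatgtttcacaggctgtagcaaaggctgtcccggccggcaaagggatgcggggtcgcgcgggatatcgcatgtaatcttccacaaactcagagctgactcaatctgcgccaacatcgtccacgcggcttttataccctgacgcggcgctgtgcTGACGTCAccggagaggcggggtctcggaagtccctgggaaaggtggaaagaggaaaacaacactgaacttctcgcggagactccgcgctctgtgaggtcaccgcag
Gemin2 at chr12:59013141-59013440 (plus strand) belongs to the widest of the 6 gene-pair peaks with a TGATGNAA match in a window, shown in capitals.
Gemin2 (pair Sec23a/Gemin2): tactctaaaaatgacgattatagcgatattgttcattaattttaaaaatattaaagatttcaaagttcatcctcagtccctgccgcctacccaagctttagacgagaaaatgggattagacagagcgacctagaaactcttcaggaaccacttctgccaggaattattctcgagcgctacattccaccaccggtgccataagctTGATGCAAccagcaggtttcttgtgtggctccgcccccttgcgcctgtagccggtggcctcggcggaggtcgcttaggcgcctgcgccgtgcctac
For contrast, Zfp672 at chr11:58330290-58330589 (minus strand) comes from a pair whose peak was present in both conditions. Its window holds 2 TGATGNAA matches, 57.5 and 69.5 bp from the centre of the peak.
Zfp672 (pair Zfp672/Sh3bp5l, both conditions): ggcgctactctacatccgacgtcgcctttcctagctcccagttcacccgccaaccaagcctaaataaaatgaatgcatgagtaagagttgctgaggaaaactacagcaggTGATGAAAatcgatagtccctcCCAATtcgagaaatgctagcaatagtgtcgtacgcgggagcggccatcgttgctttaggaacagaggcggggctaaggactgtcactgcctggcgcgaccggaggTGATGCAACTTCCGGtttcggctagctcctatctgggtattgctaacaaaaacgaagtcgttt

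The gene-pair peaks were mostly broad enough to cover both genes' ends. Of the 518 peaks, 394 (76.1%, interval 72.2% to 79.5%) covered at least 2 gene ends, 90 (17.4%) covered 1 and 34 (6.56%) covered none. Their centres, however, mostly lay to one side of the pair: in 172 peaks (33.2%, 29.3% to 37.4%) the centre lay between the 2 nearest ends. The peaks are therefore described here as peaks at adjacent gene ends rather than between them. The ends were a median of 173 bp apart (150 to 195), with quartiles of 67.25 and 373.75 bp and a range from 0 to 1550 bp. From the peak centre, the nearer end was a median of 144.75 bp away and the farther one 303 bp. In 345 peaks (66.6%) the 2 genes lay apart, in 162 (31.3%) their annotated spans overlapped, and in 11 (2.12%) 1 gene lay inside the other.

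The members closest to the 1 kb limit show what the rule cuts. Just inside it were Ift80/Smc4, whose farther end was 997 bp from the centre, A430057M04Rik/Comtd1 at 982 bp and Traf7/Rab26 at 981 bp. Just outside were Mtf1/Inpp5b at 1001.5 bp, Sart1/Tsga10ip at 1007.5 bp and Rmi1/Hnrnpk at 1012.5 bp. At the other extreme, the Capza1/St7l and Tcta/Rhoa pairs had ends 1 bp apart, Gak/Tmem175 2 bp and 2810004N23Rik/Gnpat 4 bp. The peak at Fubp1/Dnajb4 was centred 2 and 8 bp from the starts of its genes, the shortest farther distance among the members.

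Most of these gene pairs were head to head. Both strands were known for the genes of 403 of the 518 peaks (77.8%). Of these, 344 (85.4%, 81.6% to 88.5%) were divergent, with 2 gene starts facing each other, and 49 (12.2%, 9.32% to 15.7%) were tandem, with both genes on the same strand. In 9 of the 49 tandem pairs both near ends were starts, and in the others at least 1 of the near ends was a gene's 3′ end. Another 5 (1.24%) were convergent, with 2 gene 3′ ends facing each other, and 5 combined other ends. In 38 of the 49 tandem pairs (77.6%) the end nearer to the peak centre was the start of a gene. In divergent pairs the spans lay apart in 225 (65.4%) and overlapped in 119 (34.6%), and the centre of the peak was a median of 163.25 bp (150 to 176) from the midpoint of the 2 starts. With centres within 500 bp of both ends the tandem share was 7.26%, and with distances to gene starts only it was 3.35%. Tandem ends were farther apart, a median of 315 bp (182 to 469) against 156 bp in divergent pairs.

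The position plot shows this at the level of single peaks. Divergent pairs crowd at small spacing, on both sides of the midpoint, and 108 of the 344 (31.4%) had the centre between the 2 starts.

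Since many gene ends in the genome are adjacent, the pairs were read against all pairs that could have held such a peak. There were 4810 pairs of protein-coding genes with ends at most 2 kb apart, and 539 of them (11.2%) had a thapsigargin-only peak within 1 kb of both. Among the 3129 pairs with both strands known, divergent, tandem and convergent pairs were about equally common, at 1005 (32.1%), 1002 (32.0%) and 1049 (33.5%). The same count over the 422 pairs with a gene-pair peak gave 350 divergent (82.9%), 59 tandem (14.0%) and 8 convergent (1.90%). The share of divergent pairs was thus 50.8 percentage points higher than over all pairs (46.6 to 54.5), the tandem share differed by −18.0 points (−21.5 to −14.1) and the convergent share by −31.6 points (−33.5 to −29.2).

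Put the other way round, 34.8% of divergent pairs (31.9% to 37.8%) held a gene-pair peak, against 5.89% of tandem pairs (4.59% to 7.52%) and 0.763% of convergent pairs (0.387% to 1.5%). The share in divergent pairs was 28.9 points above that in tandem pairs (25.6 to 32.2) and 34.1 points above that in convergent pairs (31.1 to 37.1). The share varied less with spacing than with orientation up to 1000 bp. Of divergent pairs with ends under 100 bp apart 34.5% held a peak, of those 100 to 300 bp apart 44.6%, of those 300 to 1000 bp apart 36.8%, and of those beyond 1000 bp 6.36%. The last value is low in part by construction, because the room for a centre within 1 kb of both ends shrinks with their spacing. At each spacing the tandem share was lower, from 11.2% under 100 bp to 1.71% beyond 1000 bp, and the convergent share lower again, from 1.46% to 0.308%.

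**Figure D1:**
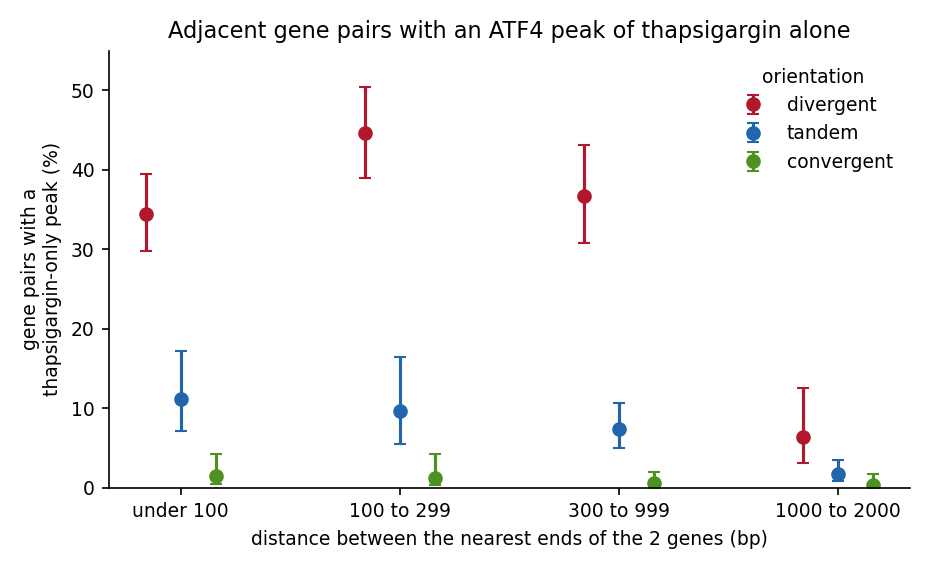
Share of neighbouring protein-coding gene pairs that held a thapsigargin-only gene-pair peak (y axis, percent) by the distance between their ends (x axis, bp) and by orientation (colours), with 95% Wilson intervals over pairs. Divergent pairs range from 34.5% to 44.6% up to 1000 bp of spacing, and tandem pairs stay at or below 11.2%.

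Gene starts were the nearer end about as often at pairs as at single genes. The nearer end was a gene start in 425 of 444 gene-pair peaks with that strand known (95.7%) and in 1543 of 1611 thapsigargin-only peaks at the end of 1 gene (95.8%), a difference of −0.0583 points (−2.53 to 1.82). The share of starts with a peak within 1 kb did differ. Of 1795 gene starts that faced another start in a divergent pair, 688 (38.3%, 36.1% to 40.6%) had a thapsigargin-only peak within 1 kb. Of 13854 starts with no other protein-coding gene end within 2 kb, 1460 (10.5%, 10.0% to 11.1%) had one. The difference was 27.8 points (25.5 to 30.1). A pair's 2 starts share their peak, so its starts are not independent and the interval is too narrow. A peak at the partner's start can also count for a divergent start, while an isolated start has no such partner. The divergent share is therefore raised by the counting, also within the CpG classes below, and by how much was not tested.

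CpG content moved with this difference. The median ratio of observed to expected CpG in the promoter window was 0.832 for divergent starts and 0.510 for isolated starts. With all windows split at ratios of 0.326 and 0.760 into 3 classes of like size, the share with a peak was 13.6% of divergent and 1.32% of isolated starts in the class poorest in CpG. It was 36% and 11.6% in the middle class, and 41.9% and 21.2% in the class richest in CpG. The differences were 12.3 points (7.11 to 20), 24.5 points and 20.6 points (17.5 to 23.8), each smaller than the 27.8 points over all starts. Whether expression of the genes or open chromatin moves with it was not tested.

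**Figure D2:**
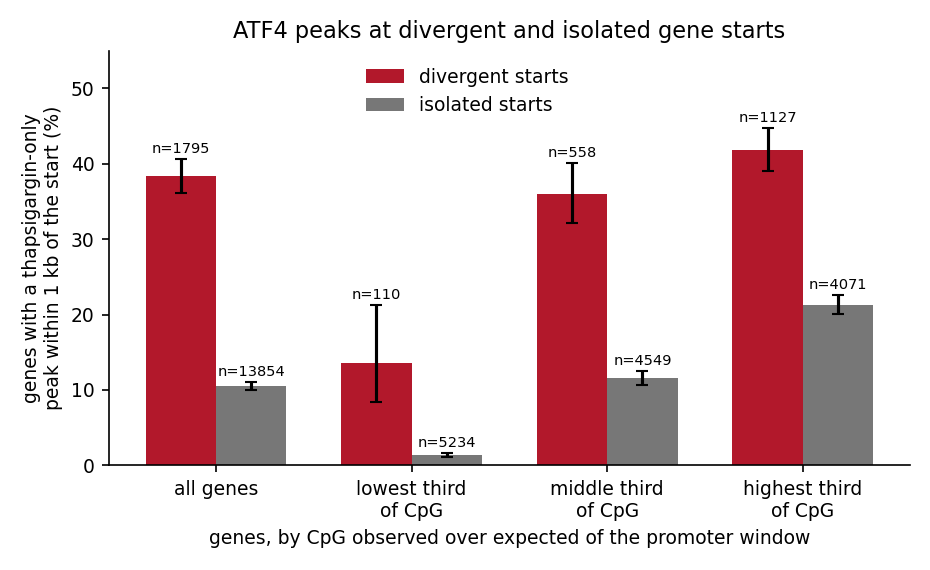
Share of gene starts with a thapsigargin-only ATF4 peak within 1 kb (y axis, percent), for starts in divergent pairs and for isolated starts, over all starts and in 3 classes of promoter CpG ratio (x axis), with 95% Wilson intervals over starts. The divergent share is above the isolated share in each class, from 13.6% against 1.32% in the poorest class to 41.9% against 21.2% in the richest. A divergent start can also count a peak at its partner's start, which raises its share.

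Gene-pair peaks were somewhat wider than thapsigargin-only peaks at 1 gene end, by medians whose intervals do not overlap. Their interval overlapped that of peaks at no gene end, and they were narrower than pair peaks present in both conditions. The median width of gene-pair peaks was 1048 bp (1013 to 1082), with quartiles of 847.25 and 1327.5 bp and a range of 354 to 2409 bp. Peaks at the end of 1 gene had a median of 979 bp (956 to 1000) and peaks at no gene end 1008 bp (998 to 1020). For the 42 peaks at 2 or more gene ends with a DMSO overlap the median was 1498.5 bp (1365 to 1595), and the 192 shared peaks at 1 gene end 1363 bp (1298 to 1417). Width is the size of the called region and not a measure of binding.

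**Figure D3:**
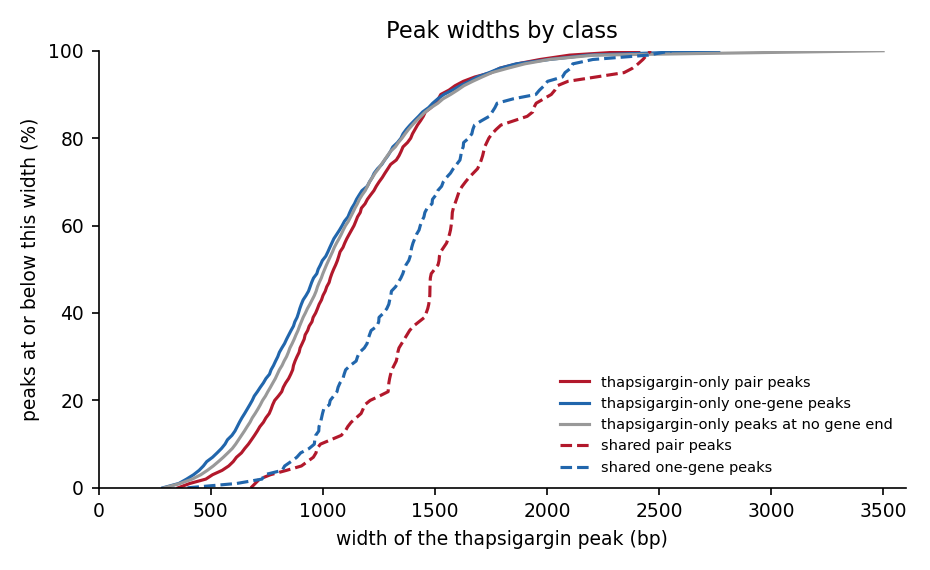
Peak width (bp) in 5 classes of thapsigargin peak, drawn as the share of peaks at or below each width. The curve of the gene-pair peaks (median 1048 bp) runs close to those of other thapsigargin-only peaks, and both classes shared with DMSO lie to the right of it, with medians of 1363 and 1498.5 bp.

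Adjacent gene ends were about as common among peaks of the thapsigargin list alone as among shared peaks. Of the 2505 thapsigargin-only peaks at any gene end, 20.7% (19.1% to 22.3%) were at 2 or more genes, against 42 of 234 shared peaks (17.9%, 13.6% to 23.4%). The difference was 2.73 points, with an interval from −2.91 to 7.41 that includes 0. Of the shared pair peaks with known strands 28 of 32 were divergent (87.5%), and the difference, thapsigargin-only minus shared, was −2.14 points (−10.6 to 13.7). DMSO peaks were far away from most members: the nearest one was a median of 610 kb distant, and 5 of the 518 (0.965%) had one within 10 kb, against 1.51% of the 1987 peaks at 1 gene end. Klhdc3, paired with Rrp36, had a DMSO peak 386.5 bp from one of its ends. Esrra, which encodes a nuclear receptor of energy metabolism, had one 31 bp from an end, and its own gene-pair peak (652 bp) also lay at ends of Trmt112 and Prdx5.

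The 12 widest gene-pair peaks held genes of varied roles. The widest, at 2409 bp, lay at the tandem genes LOC108167694 and Gm20783. The second, Sec23a/Gemin2 (2302 bp, chr12:59011467-59013768), joined a coat protein of vesicles that leave the ER with a factor that assembles splicing particles. Its 2 starts were 1374 bp apart, and the centre lay between them, 600.5 bp from the nearer one. Zc3h10/Rpl41 (2218 bp), with a ribosomal protein gene, was tandem, while Ccdc47/Ddx42 (2159 bp) and Uqcrh/Lrrc41 (2115 bp) were divergent. Ccdc47 acts in the insertion of membrane proteins at the ER, and Uqcrh is a subunit of respiratory complex III. Others among them were Adam9/Tm2d2 (2102 bp), Ift80/Smc4 (2095 bp), Zfyve26/Rad51b (2006 bp), Atp6v1g2/Nfkbil1 (2003 bp), Esf1/Ndufaf5 (1995 bp) and Brix1/Rad1 (1917 bp).

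The genes were next grouped by 17 lists. As a background, 1036 of all 21631 protein-coding genes (4.79%) were at an end with a gene-pair peak. A gene can hold one only if a neighbour is close, and of the 7048 genes with another gene end within 2 kb, 14.7% (13.9% to 15.5%) did. Over all lists together 119 of 883 genes (13.5%, 11.4% to 15.9%) had one, to be read against the 4.79%, and these were 26.2% (22.4% to 30.4%) of the 454 list genes with a close neighbour, to be read against the 14.7%. The lists differ in how many of their genes have a close neighbour, so the count of those genes, or the share of them with a peak, is given too. Intervals treat genes as independent, which the 2 genes of a pair are not.

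The regulators and amino acid genes best known as ATF4 targets had gene-pair peaks about as often as all genes, within wide intervals. Of 31 stress response regulators 1 had such a peak (3.23%, 0.572% to 16.2%, against 4.79% of all genes), and 10 had a close neighbour. That gene was Ppp1r15a, whose peak of 1446 bp (chr7:45525124-45526569) was centred 421.5 and 483.5 bp from the starts of the divergent pair, which were 62 bp apart. Of 40 genes of amino acid and one-carbon metabolism 1 had such a peak (2.5%, 0.443% to 12.9%), Psph, in the 988 bp peak it shared with Cct6a, and 10 had a close neighbour. In both lists this is 10% of the genes with a close neighbour, against 14.7% over all such genes. The rule leaves out pair peaks that overlap a DMSO peak, so these shares do not cover every pair peak of the lists. Left out in this way were Ddit3/Mbd6 (2420 bp), Gm45095/Cebpg (978 bp) and Mthfd2/Mob1a (1191 bp). Counting peaks at single genes as well as at pairs, 11 of the stress regulators and 16 of the amino acid genes had a peak also present after DMSO. No share over all genes was counted for this. Such a shared peak lay within 1 kb of 1.05% of isolated and 3.06% of divergent gene starts. Genes of oxidative stress and glutathione metabolism (0 of 22, 5 with a close neighbour), of AP-1, circadian and other bZIP factors (0 of 32, 13 with a close neighbour) and of skeletal muscle identity (0 of 27) had no gene-pair peak. The last list had no thapsigargin peak of any class within 1 kb of a gene end, and 3 of its 27 genes had a close neighbour, so the 0 there is no statement on muscle genes in pairs. In the oxidative stress and bZIP lists, 7 of 22 and 17 of 32 genes had a thapsigargin-only peak, none at a pair. Their 0 counts thus concern pairs only, with intervals up to 14.9% and 10.7% that include 4.79%. Over gene starts, 10.5% of isolated and 38.3% of divergent ones had a thapsigargin-only peak within 1 kb.

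Genes that serve the ER and the secretory pathway were present in all 3 of their lists. For folding and degradation in the ER, 9 of 50 genes had a gene-pair peak (18%, 9.77% to 30.8%), which is 36% of those with a close neighbour. They included Hsp90b1, the ER chaperone GRP94, paired with Ttc41 (1589 bp), and Dnajb11, a co-chaperone of BiP, paired with Tbccd1 (1607 bp). Also among them were the ubiquitin ligase gene Rnf5 with Agpat1 (1460 bp), Ufd1, a cofactor of the p97 ATPase that extracts proteins from the ER, with the replication gene Cdc45 (1283 bp), and Derl2 with Mis12 (1259 bp). Pdia3, a disulfide isomerase, lay in a narrower peak of 817 bp with Catsper2.

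For translocation into the ER and N-glycosylation, 10 of 63 genes had a gene-pair peak (15.9%), or 31.25% of those with a close neighbour. Alg2, a mannosyltransferase, and Sec61b, a subunit of the translocation channel, were partners of each other (1018 bp). Alg5 stood with the RNA exosome gene Exosc8 (1169 bp), Srpr, a subunit of the signal recognition particle receptor, with Foxred1 (1194 bp), and Emc6 with Tax1bp3 (1341 bp). Alg12 and Creld2, which belong to the glycosylation and the folding list, shared a divergent peak of 748 bp. Alg3 lay in a 3-gene peak of 1450 bp with Eef1akmt4 and Eef1akmt4-ece2. For traffic between ER and Golgi, 9 of 66 genes had one (13.6%), or 27.3% of those with a close neighbour, among them Sec23a, Tmed5 with Ccdc18 (1516 bp), Trappc1 with Cntrob (1448 bp), Rab6a with Mrpl48 (1345 bp) and Vps35 with Orc6 (1284 bp).

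Translation genes were led by initiation and elongation factors. Of 47 translation factors 10 had a gene-pair peak (21.3%, 12% to 34.9%), or 37.0% of those with a close neighbour. Eif5b, which joins the ribosomal subunits, stood with Txndc9 (1862 bp), Eif2b4, a subunit of the exchange factor that phosphorylated eIF2 inhibits, with Snx17 (1351 bp), and the ribosome recycling factor Abce1 with Anapc10 (1172 bp). Eif2s1, which encodes eIF2α, stood with Atp6v1d (1011 bp). Eif2a stood with Serp1 (1091 bp), a small protein of the ER membrane that is induced by ER stress. Of 78 ribosomal protein genes 8 had one (10.3%, 5.29% to 19.0%), or 19.5% of those with a close neighbour, and the 2 intervals overlap. Besides Rpl41 these included Rps27a with Clhc1 (1410 bp), Rpl15 with Nkiras1 (1393 bp), Rpl9 with Lias (1183 bp) and Rpl7a with Med22 (1004 bp). Of 39 aminoacyl-tRNA synthetase genes, which charge tRNAs, 5 had a gene-pair peak (12.8%), or 23.8% of those with a close neighbour. At pairs or single genes, 12 of the 39 had a peak shared with DMSO. No share over all genes was counted for this, and such a peak lay within 1 kb of 1.05% of isolated and 3.06% of divergent gene starts. Among the 5 with a gene-pair peak were Aimp1 with Tbck (894 bp), Qars with Qrich1 (769 bp, tandem), Fars2 with Lyrm4 (668 bp) and Aimp2 with the mismatch repair gene Pms2 (462 bp).

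Mitochondrial and cytosolic protein care was present in several head-to-head pairs. Of 113 genes of the mitochondrial ribosome, import machinery and chaperones 17 had a gene-pair peak (15.0%, 9.61% to 22.8%), or 23.3% of those with a close neighbour. The divergent pair Hspe1/Hspd1 had a peak of 1422 bp (chr1:55087097-55088518), centred 340.5 and 435.5 bp from the starts. Htra2, a protease of the mitochondrial intermembrane space, stood with the ER-associated degradation gene Aup1 (1877 bp), Mrpl34 with Abhd8 (1763 bp), and Tomm40, the pore of the outer membrane, with Nectin2 in tandem (1253 bp). Sdhd, a subunit of respiratory complex II, and the import chaperone Timm8b were divergent partners (1234 bp). Of 44 cytosolic chaperone genes 10 had one (22.7%, 12.8% to 37.0%), or 37.0% of those with a close neighbour. They included 4 chaperonin subunits, Cct3 with Tsacc (1348 bp), Cct5 with Atpsckmt (1318 bp), Cct7 with Pradc1 (1118 bp) and Cct6a. Hsf1, the master factor of the heat shock response, stood with Bop1 (1396 bp), and the HSP90 co-chaperone Ahsa1 with Vipas39 (1300 bp).

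Degradation genes were also among the members. Of 49 genes of the proteasome and ubiquitin core 4 had a gene-pair peak (8.16%), or 16.7% of those with a close neighbour. These were Psme2 with Rnf31 (1570 bp), Psmb3 with Pcgf2 (1398 bp), Psmg2 with Cep76 (1037 bp) and Psma2 with Mrpl32 (682 bp). Of 46 autophagy and lysosome genes 5 had one (10.9%), or 23.8% of those with a close neighbour: Atg2b with Gskip (1427 bp), Nbr1 with Brca1 (1373 bp, chr11:101551689-101553061), Atg3 with Slc35a5 (1265 bp), Atg12 with Ap3s1 (868 bp), and Atg9a. Atg9a, a lipid scramblase of the phagophore, was the partner in 2 gene-pair peaks, 1 shared with Ankzf1 (1092 bp, divergent) and 1 with Abcb6 (974 bp, tandem).

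The list with the highest share was that of DNA repair and replication, where 15 of 61 genes had a gene-pair peak (24.6%, 15.5% to 36.7%), or 37.5% of those with a close neighbour. In that list 40 of 61 genes had a close neighbour, the highest share (65.6%) of the 17 lists. Examples were the base excision gene Apex1 with Osgep (1433 bp), the damage kinase gene Atm with Npat (1400 bp), Xrcc3 with Zfyve21 (1377 bp) and Xpc with Tmem43 (1323 bp). Xpc had a second gene-pair peak at its other end, where it meets Lsm3 (1251 bp). The replication helicase gene Mcm4 and the repair kinase gene Prkdc were partners of each other (1113 bp). For RNA splicing and processing 15 of 76 genes had one (19.7%), or 30.6% of those with a close neighbour, among them Cstf1 with Aurka (1523 bp), U2af2 with Ccdc106 (1407 bp), Hnrnpa2b1 with Cbx3 (1372 bp), Snrpd2 with Qpctl (1349 bp) and Exosc1 with Zdhhc16 (1265 bp). Among genes with a close neighbour, the shares over the 17 lists ran from 0 in 3 lists and 10% in the stress regulator and amino acid lists up to 37.5% here, against 14.7% over all such genes. No test of these lists was made, since earlier results of these data were known when they were chosen.

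The 11 peaks at 3 genes included Gm12500/Ampd2/Gnat2 (1887 bp), Rspry1/Psme3ip1/LOC115486880 (1530 bp), Trappc13/Trim23/Shld3 (1269 bp) and Rad17/Taf9/Ak6 (871 bp). In the last, a DNA damage checkpoint gene meets Taf9, a subunit of the general transcription factor TFIID. The other named ones were Cyb5d1/Naa38/Tmem88 and Polr2i/Tbcb/Ovol3, both 1153 bp, and Bysl/Med20/Gm20517 (1107 bp).

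Histone genes were singled out after the values were seen. Of 35 neighbouring pairs of histone genes 5 had a gene-pair peak (14.3%, 6.26% to 29.4%), near the 11.2% of all neighbouring pairs, and all 5 were on chromosome 13. These were H2bc9/H3c7 (1872 bp), H4c1/H3c1 (1815 bp), H2ac6/H2bc4 (1606 bp), H3c3/H2bc3 (1516 bp) and H2ac8/H2bc8 (1057 bp), and none of the 35 had a peak shared with DMSO, against 0.873% of all neighbouring pairs. Near-identical histone genes can share reads, so these peaks are uncertain. Across chromosomes, the share of neighbouring pairs with a gene-pair peak ran from 2.19% on chromosome 18 (10 of 457) and 3.77% on chromosome X to 21.8% on chromosome 13 (29 of 133). Chromosome 18 had the most neighbouring pairs, ahead of chromosome 7 with 442, and these also count in the 11.2%. Which genes form them was not examined, so its low share is not read as a trait of the chromosome.

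The motif of the ATF4 and C/EBP composite element was rare at these pairs. RefSeq windows were available for 783 starts at 455 of the 518 peaks, with both genes covered for 328 peaks, and the 63 peaks without a window are not in these counts. TGATGNAA, searched on both strands, was found in 7 of the 783 windows (0.894%, 0.434% to 1.83%). It was in 2.91% of 1511 windows of thapsigargin-only peaks at 1 gene end and in 3.50% of the windows of all 17274 genes that have one. The difference from windows at 1 gene end was −2.02 points (−3.10 to −0.824). In pair peaks present in both conditions it was in 9 of 58 windows (15.5%, 8.38% to 26.9%), and the difference, gene-pair minus shared, was −14.6 points (−26.0 to −7.43). The windows of a divergent pair share bases, and pair windows are richer in CpG than windows at 1 gene end and than windows of all genes. The median ratios were 0.861, 0.813 and 0.586, so neither of these 2 comparisons is matched for base composition. A low share was also not limited to TGATGNAA. The AP-1 element TGANTCA was in 2.68% of gene-pair windows, against 4.70% at 1 gene end, 8.62% in shared pairs and 7.09% of all windows.

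The 6 members with a TGATGNAA match in a window were Sec23a/Gemin2, Scaf1/Rras, Hnrnpa2b1/Cbx3, Wdhd1/Socs4, BC049715/Wbp11 and Ung/Alkbh2, all divergent. The matches lay a median of 591 bp from the peak centre. At Sec23a/Gemin2, printed above, the match was 731 bp from the centre. The pairs shared with DMSO that had a match were Mc1r/Tubb3, Zfp672/Sh3bp5l, Hspa14/Cdnf, Paox/Echs1, Nop14/Grk4, S100pbp/Yars and Esrra/Catsperz. Hspa14 is an HSP70 relative and Cdnf a neurotrophic factor that resides in the ER. The Cdnf window, at chr2:3512815-3513114 (plus strand), was chosen after the values were seen as a second contrast. Its TGATGNAA match lies on the opposite strand at bases 49 to 56, and it has 3 CCAAT boxes.
Cdnf (pair Hspa14/Cdnf, both conditions): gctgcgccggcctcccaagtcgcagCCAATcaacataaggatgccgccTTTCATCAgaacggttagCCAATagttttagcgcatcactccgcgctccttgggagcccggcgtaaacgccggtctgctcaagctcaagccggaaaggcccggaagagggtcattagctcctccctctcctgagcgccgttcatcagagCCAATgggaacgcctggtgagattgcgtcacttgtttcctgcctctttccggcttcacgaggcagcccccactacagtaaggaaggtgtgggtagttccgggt

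Other motifs gave a different order. The palindrome TGACGTCA was in 48 of the 783 windows (6.13%), in 5.10% of windows at 1 gene end and in 2.36% of all windows, 3.77 points above the last (2.28 to 5.69). All windows are not matched for base composition, and the difference from windows at 1 gene end was 1.03 points (−0.885 to 3.18). TGACGT, of which the palindrome is an extension and which was added after the values were seen, was in 18.4%, 17.5% and 8.81%. Of 37 palindromes in windows of members, 13 (35.1%) lay within 100 bp of the peak centre, against 26.9% of all window positions. Their median distance from the centre was 206.5 bp (96 to 238), against 197 bp for all window positions, so they were not closer by this measure. At Ppp1r15a/Plekha4 the palindrome was 430 bp from the centre and at Mrpl49/Fau 241 bp. The ETS element CCGGAAGT was in 11.4% of gene-pair windows and 8.34% of windows at 1 gene end, a difference of 3.03 points (0.497 to 5.77). The YY1 element AAGATGGCG was in 4.98% and 2.78%, a difference of 2.2 points (0.574 to 4.10), and the NRF1 element CGCATGCGC in 5.49% and 4.96%.

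**Figure D4:**
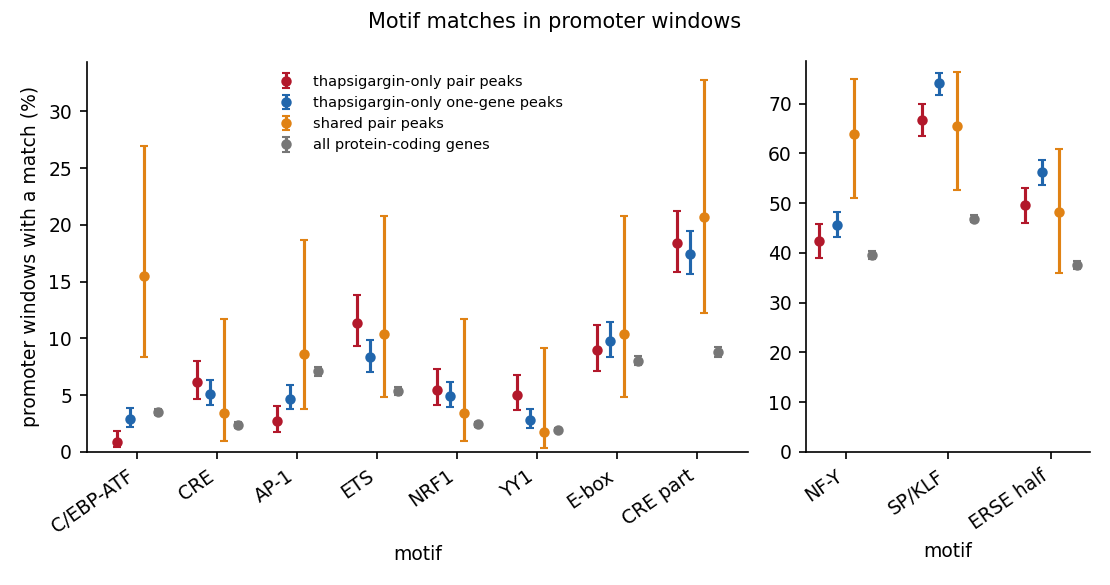
Share of promoter windows of 300 bases that hold each motif on either strand (y axis, percent) for gene-pair peaks, thapsigargin-only peaks at 1 gene end, pair peaks shared with DMSO and all genes, with 95% Wilson intervals over windows and a second panel, on its own axis, for the 3 commonest motifs. The ATF4 and C/EBP element is in 0.894% of windows of gene-pair peaks and in 15.5% of windows of shared pair peaks. The palindrome is in 6.13% and 3.45%, the latter 2 of 58 windows, a difference of 2.68 points (−5.73 to 5.82).

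Several common promoter motifs were less frequent at the pairs than at single genes, or about as frequent. CCAAT was in 42.4% of gene-pair windows and 45.7% of windows at 1 gene end, and the E-box CACGTG in 8.94% and 9.79%. For these the interval of the difference includes 0. The GC box GGGCGG was in 66.8% and 74.1% (−7.26 points, −11.3 to −3.33). CCACG was in 49.6% and 56.2% (−6.63 points, −10.9 to −2.33), and the AP-1 element TGANTCA in 2.68% and 4.70% (−2.02 points, −3.52 to −0.335). CCACG is the part of the ER stress element that ATF6 and XBP1 bind. Peaks with a CCAAT match had a median width of 1108 bp (1055 to 1160), and those without 1007 bp (935 to 1069). In windows that hold the peak centre, a restriction added after the values were seen, TGATGNAA was in 0.621% of gene-pair windows, 4.10% of windows at 1 gene end and 20% of windows of shared pairs, the last from 20 windows. A window covers 300 bases, and most peaks extend beyond it, so these counts do not cover the whole peaks.

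Markers gave a limited check of the cell type. No thapsigargin peak lay within 1 kb of an end of any of the 4 myoblast markers, and none did for the 3 markers of each other cell type, so peaks in these lists do not bear on the labelled identity of the cells.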

How the data were processed

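ATF4 CUT&Tag was done on wild-type C2C12 cells after 6 h of DMSO or 100 nM thapsigargin with a Vazyme Hyperactive Universal kit, per the labels' protocols. The files deposited by the authors hold start and end positions in bp, 1 list per condition, with no score, height or read depth. The build is mm10 and the tools listed are MACS2 2.2.7.1, Bowtie2 and Trim Galore 0.6.10, per the submitters' processing notes, which state no role for any of them. Not given in the sources used here are the peak threshold, any control library and the way the 2 replicates became 1 list, so a longer list can also come from deeper reads or a looser threshold. Nothing in the labels says whether replicates came from separate cultures. The other 8 groups were not used here.

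Overlap meant at least 1 shared bp. Distances ran from the peak centre to the start and end of 21631 protein-coding genes in RefSeq's GRCm38.p6 table, the assembly that mm10 names. These are the outer ends of each gene's span, while the window of a gene at a peak was taken at the annotated start nearest the centre. Strand, gene start and sequence came from RefSeq promoter windows, present for 17274 of these genes (79.9%), so a pair without both windows has no orientation. Of the 1681 neighbouring pairs without one, 117 (6.96%) held a gene-pair peak. These pairs count in the 11.2% of all pairs but in no orientation share. The chromosome 18 pairs Cep76/Psmg2 and Ap3s1/Atg12 are among them, and how many pairs of that chromosome lack an orientation was not counted. Pairs were oriented by the 2 nearest genes. Motifs were searched on both strands. Tables were joined in pandas 2.3.3 with numpy 2.4.6 under Python 3.11.15, intervals used scipy 1.17.1, plots used matplotlib 3.10.9, and the steps were tested on simulated data. Printed coordinates count from 1.

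The members and lists were chosen with earlier results of these data known. Named by rule were the 12 widest member peaks, up to 6 per gene list and up to 8 at 3 genes by width. The rule also took the 3 nearest to each side of the 1 kb limit, the 4 smallest gaps between separate genes and the 3 members nearest to a DMSO peak. Some genes that the rule names are left out of the text. Other genes, outside this rule, were named after their values were seen. Alternatives covered the distance limit, the gene set, the peaks used and the motif windows. Searching windows that hold the peak centre, and searching TGACGT, were added after the data were seen.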

Additional observations from a re-analysis of the deposited data

How the results depend on the processing

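The order of orientations, divergent above tandem above convergent, was the same under each alternative that was run. Of 97 alternative values 53 were classed as unchanged and 44 as moved, 17 of the latter motif shares and 27 other values. Shares and medians were judged by their interval, but numbers of peaks have none. Against 518 peaks, numbers classed as unchanged included 392 with a 500 bp limit and 643 with a 2 kb limit. They also included 395 with ends covered by the peak and 358 with gene starts only. With a 500 bp limit the share of gene-pair peaks among gene-end peaks was 18.5%, and 90.6% covered both ends. The divergent, tandem and convergent shares were then 92.4%, 7.26% and 0. With a 2 kb limit the first 4 of these values were 22.9%, 61.4%, 76.2% and 19.1%. With ends covered by the peak in place of a distance, the median width was 1128 bp, 100% covered both ends by construction, and the 3 orientation shares were 91.6%, 8.04% and 0. Over the wider part of the list there were 267 such peaks, 23.3% of gene-end peaks, with a median width of 1312 bp, 91.8% covering both ends and 0.478% convergent. With genes of all types there were 912 peaks, 31.4% of gene-end peaks, with a tandem share of 8.86%. With gene starts only, the share was 17.8%, 82.7% covered both ends, and the 3 orientation shares were 96.6%, 3.35% and 0. Counted only where both genes of a pair held it, TGATGNAA was in 0.305% and TGACGTCA in 3.96% of pairs. Counting a DMSO peak within 1 kb as shared gave the same 518 peaks. No paired analysis was possible because the deposited ATF4 data are 1 list for DMSO and 1 for thapsigargin, and for the same reason no replicate could be left out. The unknown depth limits every count, and a gene not listed here may lie under the peak threshold.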

Other observations

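The 3 members nearest to a DMSO peak were Mrps18b/Ppp1r10 at 1.79 kb, Rrp36/Klhdc3 at 5.92 kb and Bop1/Hsf1 at 6.67 kb. Mrps18b encodes a mitochondrial ribosomal protein and Ppp1r10 a regulatory subunit of protein phosphatase 1. Rrp36 acts in the making of the small ribosomal subunit. Of the 5 convergent pairs, 2 chosen after their values were seen were Nudt5/Sec61a2 (1099 bp) and Cap1/Ppt1 (783 bp). Sec61a2 is a paralog of the main subunit of the ER translocation channel, and Ppt1 a lysosomal thioesterase.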
